A study of Sus scrofa with 6 samples.

Results

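Smooth muscle cells of the aortic wall keep a contractile identity through some transcription factors and coactivators, while other factors are linked to its loss. Of both kinds, 10 genes were chosen by name from the 30477 genes of the deposited table: MYOCD, SRF, MRTFA, MRTFB, KLF4, KLF2, TCF21, MEF2C, TEAD1 and FOXO1. Each of the 10 symbols was found in 1 row. They were compared in the abdominal aorta of male Wuzhishan pigs, a miniature breed, that received normal chow (NC, 3 libraries) or a diet high in fat, cholesterol and fructose (HFCF, 3 libraries) for 6 months. The labels give an age of 3 to 4 months and the methods an older one at purchase. The labels name no genetic change or drug, so diet is the only factor, and the tissue is whole aorta with the vessel wall's smooth muscle, endothelium, adventitia and, after the HFCF diet, infiltrating cells. The libraries are called NC1 to NC3 and HFCF1 to HFCF3 after their titles. The sources describe them as triplicates of each diet without tying a library to an animal, so p-values measure the spread between these libraries.

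In a contractile smooth muscle cell, SRF binds a DNA element called the CArG box in front of contractile genes such as ACTA2, MYH11 and CNN1. Myocardin, the product of MYOCD, binds SRF and turns these genes on, and the related coactivators MRTFA and MRTFB do so when actin filaments assemble and release them into the nucleus. KLF4 is known for opposing myocardin and for the loss of contractile genes in atherosclerotic lesions, in which smooth muscle cells take on fibroblast-like and other states, a change called phenotypic switching.

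MYOCD, SRF and MRTFA were lower in the HFCF group, and none of the 10 factors was called higher. The deposited unit was FPKM, fragments scaled to the exon length of the gene and to the mapped reads of the library. Changes are log2 differences of FPKM + 0.1 with the adjusted p of limma's moderated test over 15384 tested genes, and a gene was called at an adjusted p under 0.05. All 10 factors passed the filter of a mean of at least 0.1 FPKM. The 3 calls among 10 factors stand against 6.16% of all tested genes called lower and 22.8% called higher, 28.9% in either direction. Among 673 tested genes annotated with DNA-binding transcription factor activity in the deposited table, 10.5% were called lower and 18.4% higher, and 9 of the 10 factors are in that group. The median log2 fold change was -0.36 over the 10 factors and 0.32 over all tested genes. The latter was -0.003 with median-ratio scaling, which centers it near 0 by construction, and 0.089 after rescaling to TPM.

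**Figure D1:**
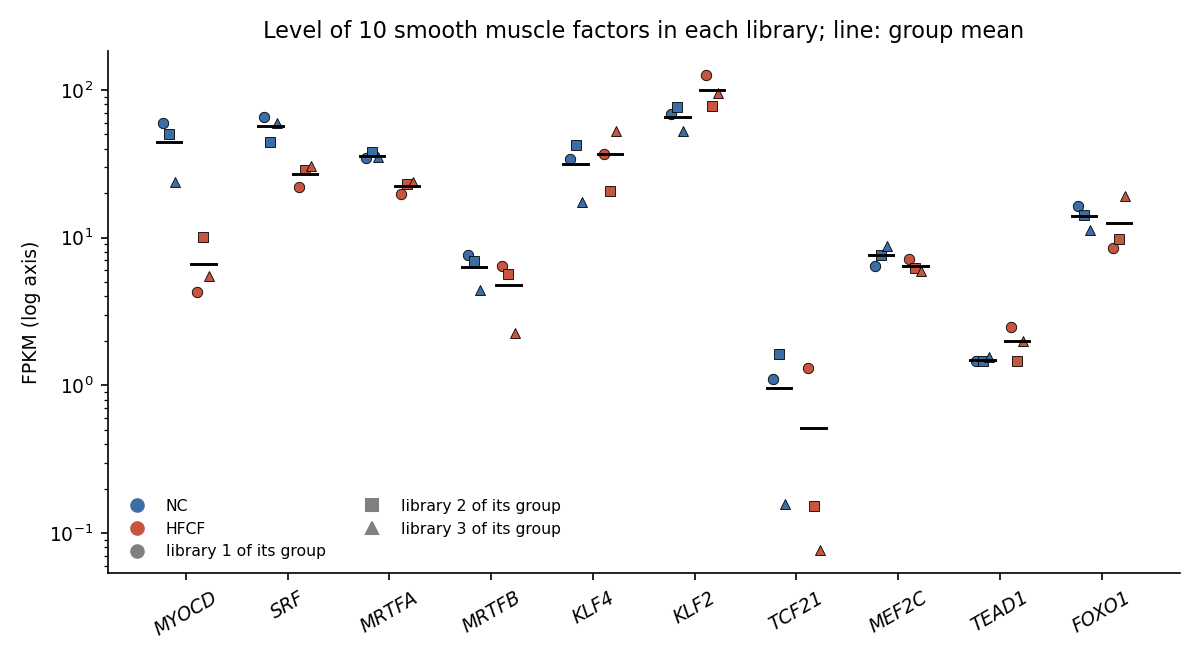
FPKM on a log axis of each of the 10 factors in the 3 NC libraries (blue) and the 3 HFCF libraries (red), with marker shapes for library 1, 2 and 3 of a group and a black line at the group mean. MYOCD, SRF and MRTFA have all HFCF points below all NC points, and MYOCD spans 4.27 to 59.4 FPKM.

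MYOCD encodes the smooth muscle and heart coactivator of SRF. Its levels were 59.4, 50.5 and 23.9 FPKM in NC1, NC2 and NC3 and 4.27, 10.1 and 5.52 FPKM in HFCF1, HFCF2 and HFCF3. The groups did not overlap, although NC3 had less than the other NC libraries. The NC mean of 44.6 ± 18.5 FPKM dropped 6.72-fold to an HFCF mean of 6.64 ± 3.08 FPKM (SD, n = 3 for both). On the log2 scale this is -2.72 (95% interval -3.73 to -1.72, adjusted p = 0.00543, limma). This was the 55th most negative log2 fold change of the 15384 tested genes and the fifth among the genes annotated with transcription factor activity, behind PITX1 (-4.69), EMX2 (-3.66), HOXC11 (-2.94) and TBX4 (-2.78). TBX4 had an adjusted p of 0.0544 in limma, and these 4 genes had mean levels of 0.477 to 2.66 FPKM over the libraries against 25.6 FPKM for MYOCD. MYOCD stood at the 94.3rd percentile of tested genes by NC level and at the 63.2nd by HFCF level.

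SRF, the MADS-box factor through which all 3 coactivators act, had 65.8, 44.5 and 59.3 FPKM in the NC libraries and 21.9, 28.5 and 30.5 FPKM in the HFCF libraries. The lowest NC library lay above the highest HFCF library. With means of 56.5 ± 10.9 and 26.9 ± 4.49 FPKM (SD, n = 3 each), SRF changed by -1.06 on the log2 scale (95% interval -1.54 to -0.58, adjusted p = 0.0103, limma). MRTFA, the actin-regulated coactivator once named MKL1, had 34.7, 38.2 and 35.1 FPKM in the NC libraries and 19.7, 23.1 and 24.0 FPKM in the HFCF libraries. It was the most even of the 3 called genes within groups, with log2 SDs of 0.076 and 0.148. Its log2 fold change was -0.69 (95% interval -1.02 to -0.37, adjusted p = 0.0117, limma).

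MRTFB, the paralog of MRTFA, had 7.60, 6.97 and 4.41 FPKM in the NC libraries and 6.39, 5.70 and 2.27 FPKM in the HFCF libraries. The groups overlapped, and the third library of each group was its lowest. MRTFB changed by -0.49 on the log2 scale with a 95% interval of -1.47 to 0.50 (adjusted p = 0.412, limma), an interval that holds the change of MRTFA. In the NC group MRTFA stood at 36.0 FPKM and MRTFB at 6.32 FPKM on the length-adjusted scale, without overlap.

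The no-overlap count of the factors was 3 lower and 1 higher. Over all tested genes 12.1% were lower and 36.1% higher without overlap. By the study's fold thresholds, a ratio of means under 0.5 or above 2 and an unadjusted p under 0.05, MYOCD (ratio 0.149) and SRF (ratio 0.477) were lower and no factor was higher, while MRTFA had a ratio of 0.619. These thresholds took in 4.82% of all tested genes as lower and 20.7% as higher.

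**Figure D2:**
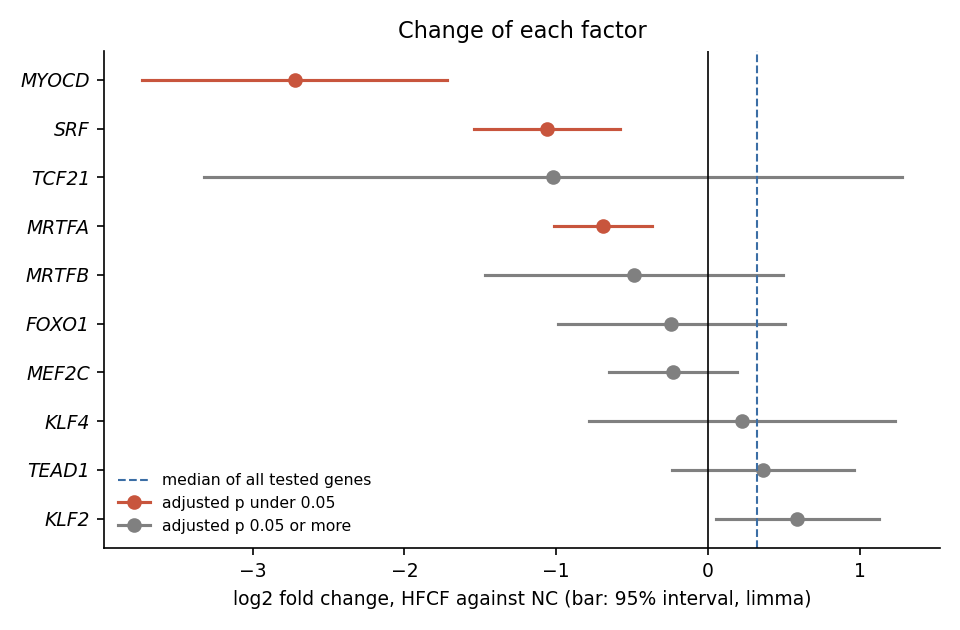
Log2 fold change of each factor, HFCF against NC, with the 95% interval from limma, red where the adjusted p was under 0.05. The intervals of MYOCD, SRF and MRTFA lie below 0, and the dashed line marks the median of all tested genes at 0.32.

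KLF4, the zinc finger factor best known for repressing contractile genes, was not called. It had 34.2, 42.4 and 17.6 FPKM in the NC libraries and 36.9, 20.7 and 52.9 FPKM in the HFCF libraries. The groups overlapped almost fully, and the lowest value belonged to NC3 and the highest to HFCF3. KLF4 differed by 0.22 on the log2 scale with a 95% interval of -0.79 to 1.23 (adjusted p = 0.725, limma), so changes of about that size in either direction were not detectable with 3 libraries a group. The sign of this value is not fixed, since it was -0.13 after median-ratio scaling.

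KLF2, a shear-responsive factor of endothelium and other cells, had the highest mean of the 10 factors in both groups. It had 68.2, 76.9 and 52.7 FPKM in the NC libraries and 127.2, 77.7 and 95.2 FPKM in the HFCF libraries. The groups did not overlap, but HFCF2 and NC2 differed by less than 1 FPKM. Its log2 fold change was 0.59 (95% interval 0.05 to 1.13), with an adjusted p of 0.0943 in limma (0.0361 before adjustment). It missed the threshold, and it lay 0.27 above the median of all tested genes.

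TCF21, a basic helix-loop-helix factor of the adventitia and of smooth muscle cells that turn fibroblast-like, had the lowest mean of the 10 factors. Its levels were 1.10, 1.62 and 0.156 FPKM in the NC libraries and 1.30, 0.152 and 0.077 FPKM in the HFCF libraries. NC1, NC2 and HFCF1 stood near or above 1 FPKM and the other libraries far below, so the split did not follow diet. TCF21 differed by -1.02 on the log2 scale with a 95% interval of -3.32 to 1.28 (adjusted p = 0.462, limma). The summed FPKM of 7 adipocyte markers was 210.0 in NC1, 316.7 in NC2 and 51.3 in NC3, and 104.6, 76.8 and 103.8 in the HFCF libraries, and that of 4 Schwann cell markers was 18.9, 9.91 and 2.96 in the NC libraries and 13.2, 5.12 and 3.33 in the HFCF libraries. The part of these cells in the TCF21 values was not tested.

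MEF2C, a MADS-box relative of SRF active in muscle, endothelium and myeloid cells, had 6.47, 7.68 and 8.75 FPKM in the NC libraries and 7.21, 6.23 and 5.92 FPKM in the HFCF libraries. The groups overlapped, and the log2 fold change was -0.23 (95% interval -0.66 to 0.19, adjusted p = 0.361, limma). MEF2C passed the threshold after median-ratio scaling (-0.59, adjusted p = 0.0393, limma) and after quantile normalization (-0.56, adjusted p = 0.0428, limma).

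TEAD1, the DNA-binding partner of the coactivators YAP and TAZ, had 1.46, 1.45 and 1.55 FPKM in the NC libraries and 2.50, 1.47 and 1.995 FPKM in the HFCF libraries. The 3 NC values lay within 0.1 FPKM of each other, and HFCF2 lay among them. The log2 fold change was 0.36 (95% interval -0.23 to 0.96, adjusted p = 0.316, limma). FOXO1, a forkhead factor that insulin signalling excludes from the nucleus, had 16.4, 14.3 and 11.3 FPKM in the NC libraries and 8.51, 9.83 and 19.0 FPKM in the HFCF libraries. HFCF1 and HFCF2 lay below every NC library and HFCF3 above every one. FOXO1 differed by -0.24 on the log2 scale (95% interval -0.99 to 0.51, adjusted p = 0.598, limma).

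The order of the factors by level differed between the groups. In the NC group KLF2 (65.9 FPKM), SRF (56.5), MYOCD (44.6), MRTFA (36.0) and KLF4 (31.4) came first, and each overlapped its next neighbour down to KLF4. FOXO1 (14.0 FPKM) followed without overlap on either side, then MEF2C (7.63) and MRTFB (6.32), which overlapped, and TEAD1 (1.49) and TCF21 (0.957), which also overlapped. In the HFCF group KLF2 (99.995 FPKM) stood apart from KLF4 (36.8), SRF (26.9) and MRTFA (22.3). MYOCD (6.64 FPKM) came sixth, between FOXO1 (12.5) and MEF2C (6.45), and its libraries overlapped with those of both. MYOCD thus went from the third to the sixth place among the 10 genes.

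A ratio of 2 genes within 1 library does not depend on how libraries are scaled to each other. MYOCD over KLF4 was 0.80, 0.25 and 0.44 on the log2 scale in the NC libraries and -3.08, -1.02 and -3.24 in the HFCF libraries. MYOCD was thus above KLF4 in each NC library and below it in each HFCF library, a mean difference of -2.94. MYOCD over MRTFA was 0.21 ± 0.68 in the NC and -1.82 ± 0.56 in the HFCF libraries (SD, n = 3 each), without overlap. MEF2C, TEAD1 and FOXO1 relative to MYOCD were 2.49, 3.09 and 2.48 higher on the log2 scale in the HFCF group, again without overlap. These 5 ratios share MYOCD, and each had p = 0.1 in the exact two-sided permutation test, the smallest p that 3 against 3 libraries allow, or 0.12 after Benjamini-Hochberg adjustment over the 6 ratios. KLF4 over KLF2 was -1.14 ± 0.38 and -1.51 ± 0.58 (SD, n = 3 each) and overlapped (exact permutation p = 0.4).

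**Figure D3:**
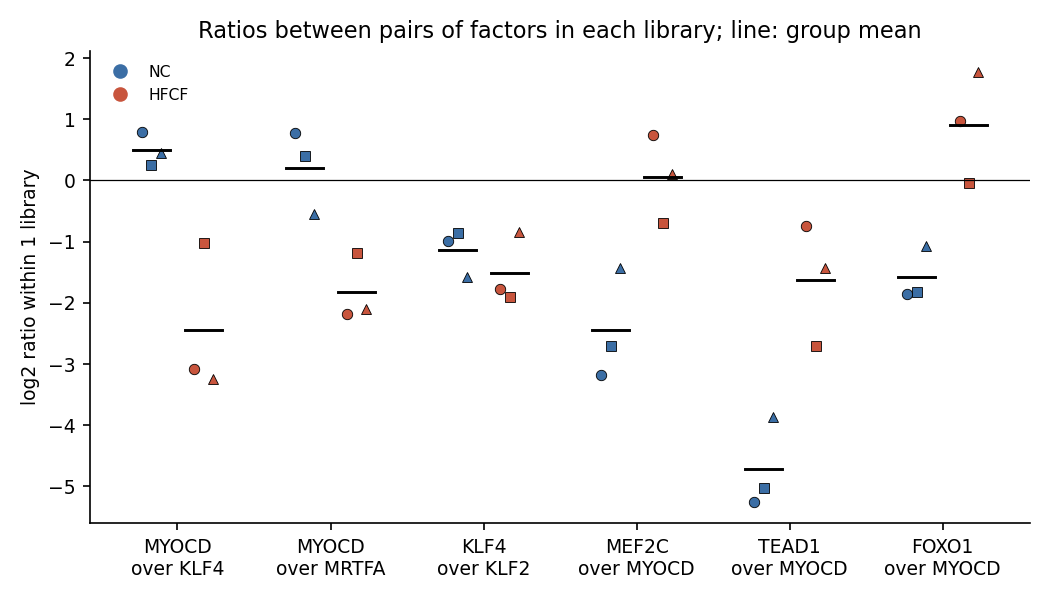
Log2 ratio of 2 factors within each library for 6 pairs, NC in blue and HFCF in red, with a line at each group mean. In the 5 pairs that contain MYOCD the groups do not overlap, and in KLF4 over KLF2 they do.

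Markers of other cell types were measured beside the factors, and among them the macrophage markers were called throughout. Their counts stand against 22.8% of all tested genes called higher and 6.16% lower. In whole tissue, fewer smooth muscle cells and less RNA of a gene in each of them cannot be told apart. All 8 contractile smooth muscle markers were present, with a summed level of 19927 to 27544 FPKM in the NC group and 9972 to 16228 FPKM in the HFCF group, and 5 of the 8 were called lower. Of 12 macrophage markers 11 were tested and all 11 were called higher, with sums of 58.2 to 69.9 FPKM against 811.2 to 2054 FPKM, highest in HFCF1. LYZ was listed at 0 in every library. Of 6 T cell markers 3 were called higher, with sums of 0.545 to 0.873 FPKM in the NC group and 2.70 to 10.5 FPKM in the HFCF group, and of 4 tested B cell markers 1 was called higher (6.04 to 10.3 against 34.8 to 44.6 FPKM). Of 9 endothelial markers 1 was called lower (240.3 to 368.1 against 175.5 to 343.2 FPKM), and of 8 fibroblast markers 1 was called higher (1283 to 2750 against 1683 to 2912 FPKM). Of 7 adipocyte markers 1 was called lower, and of 3 tested cardiac markers 2 were called higher at sums under 3 FPKM. No call was made among 2 tested skeletal muscle, 4 Schwann cell and 3 red blood cell markers. Summed skeletal muscle markers stayed under 5 FPKM in every library, with MYOD1 listed at 0, and red blood cell markers summed to 2897, 86.5 and 95.5 FPKM in HFCF1, HFCF2 and HFCF3 against 22.03 to 178.8 FPKM in the NC libraries, so that HFCF1 alone lay outside the NC range. The part of these cells in the changes of the factors was not tested.

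Set against the contractile markers of the same library, MYOCD was lower in the HFCF group beyond their own decrease, and SRF kept about the same distance from them. These 8 markers are themselves among the genes known to be driven by SRF and myocardin, so the factors were set against their own targets. What part of these distances reflects cell number was not tested. The mean log2 level of the 8 markers was 10.95 ± 0.21 in the NC group and 9.92 ± 0.41 in the HFCF group (SD, n = 3 each), a difference of -1.02. MYOCD relative to that mean was -5.29, -5.21 and -6.20 in the NC libraries and -7.43, -6.50 and -7.87 in the HFCF libraries. The groups did not overlap, and the difference was -1.70. SRF relative to the markers differed by -0.04 and MRTFA by 0.33, with overlap in both. KLF2 and TEAD1 relative to the markers were higher in each HFCF library than in any NC library, by 1.61 and 1.39, as was FOXO1 by 0.78. Rises on this scale were common. With libraries scaled to these markers, the median of all tested genes was 1.25 and 9061 of 15384 were called higher. FOXO1 lay below that median and TEAD1 near it. The share of all genes without overlap was not computed on this scale. KLF4 relative to the markers differed by 1.25, with overlap.

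In a fit with every library scaled to these 8 markers, an alternative added after the values had been seen, the median of all tested genes was 1.25 on the log2 scale. The log2 fold change of MYOCD was -1.71 in that fit (adjusted p = 0.00471, limma), that of SRF -0.04 (adjusted p = 0.914, limma) and that of MRTFA 0.33 (adjusted p = 0.36, limma). SRF and MRTFA were thus not called. KLF4 (1.24), TEAD1 (1.33), KLF2 (1.61) and FOXO1 (0.77) were called higher in that fit, in which 9061 of the 9188 calls over all genes were higher, and of these 4 genes KLF4 and FOXO1 lay below the median of all genes. KLF2 relative to the mean of 9 endothelial markers was 1.73, 1.78 and 2.02 in the NC libraries and 2.12, 2.21 and 3.00 in the HFCF libraries, without overlap and with a difference of 0.60. That mean itself differed by only -0.013, so this restates the change of KLF2 of 0.59, which was not called. Without such scaling, 36.1% of all tested genes were higher without overlap.

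**Figure D4:**
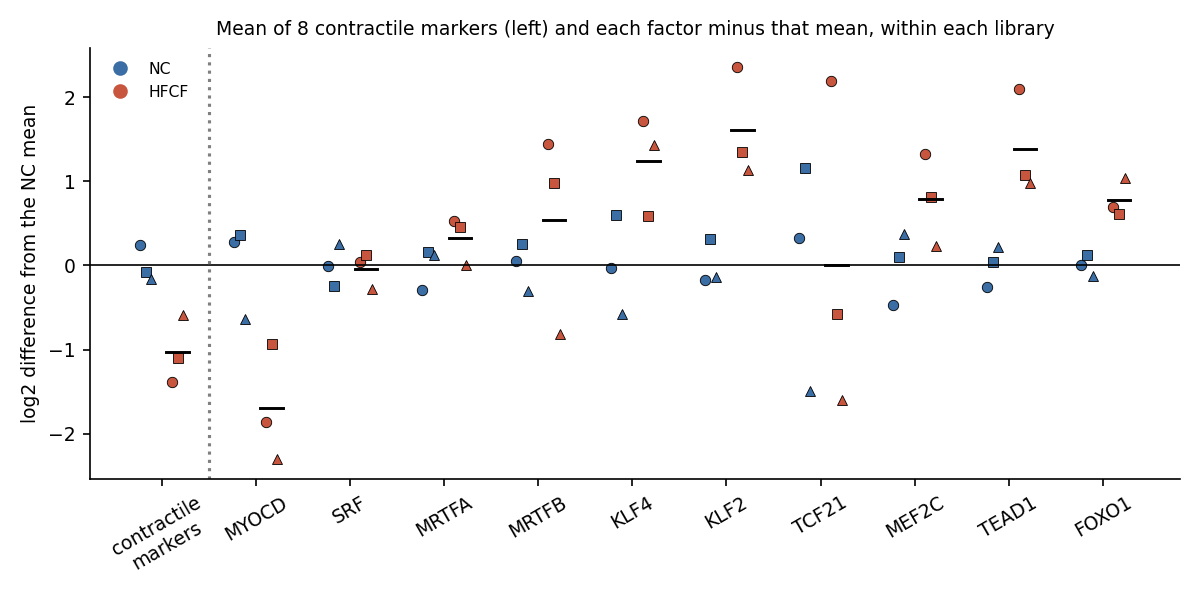
Left of the dotted line, the mean log2 level of 8 contractile markers in each library, and right of it each factor's log2 level minus that mean, all drawn as the difference from the NC mean. MYOCD in the HFCF libraries lies below all NC libraries with a mean of -1.70, while SRF lies around 0.

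Genes known to be driven by SRF and myocardin, listed with earlier results of these data known, were lower as a group. Of 21 tested contractile targets 14 were called lower, 1 higher and 6 were not called, and the median log2 fold change was -1.14, against 0.32 for all tested genes. With 6.16% of all genes called lower, 17 of the 21 targets had no overlap in that direction, for which the share over all genes was 12.1%. CASQ2, a calcium store protein, fell from 55.1 ± 8.79 to 14.2 ± 2.32 FPKM (SD, n = 3 each; -1.95 on the log2 scale, adjusted p = 0.00118, limma). CALD1, the actin-binding caldesmon, rose from 89.4 ± 8.15 to 144.5 ± 12.7 FPKM (0.69, adjusted p = 0.013, limma). The count called lower was 7 without NC1, and 2 with every library scaled to the 8 contractile markers, which are themselves among these targets. In every one of the 21 targets the log2 fold change was less negative than that of MYOCD, and 12 of them fell by more than SRF.

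**Figure D5:**
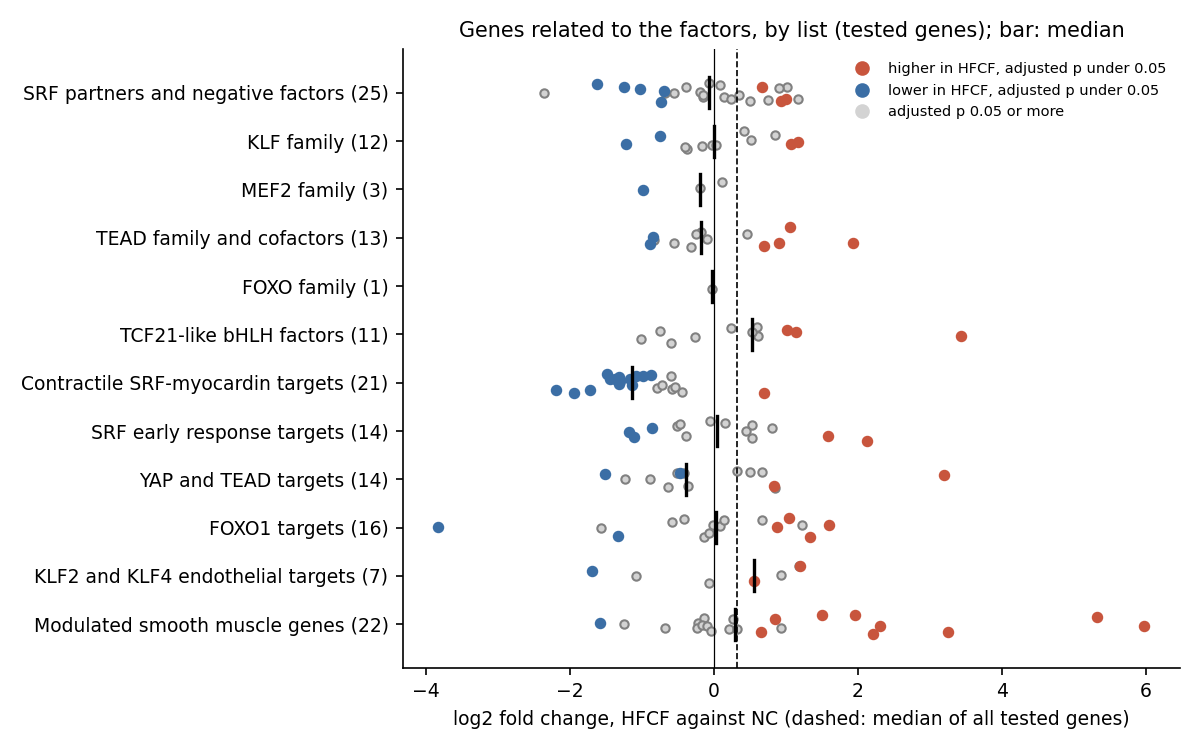
Log2 fold changes of tested genes in 12 lists related to the factors, with the number tested in brackets, red and blue for genes called higher and lower in the HFCF group, and a black bar at the median of each list. The contractile targets center at -1.14, left of the median of all tested genes (dashed, 0.32).

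A list of further SRF targets, which held early response genes but also genes such as ACTB and TGFB1I1, did not move one way. Of 14 tested, 2 were called higher and 3 lower, with a median of 0.05. The counts of this list and those below stand against 22.8% of all tested genes called higher and 6.16% lower. EGR3 and EGR2, zinc finger factors, rose from 0.499 to 2.97 FPKM and from 2.46 to 7.74 FPKM (log2 fold changes of 2.13 and 1.59). ACTB, cytoplasmic actin and a frequent reference gene, fell from 898.5 ± 131.4 to 393.8 ± 35.5 FPKM (SD, n = 3 each; -1.18, adjusted p = 0.00512, limma). TGFB1I1, a focal adhesion coactivator, fell by 1.11 on the log2 scale.

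Partners and negative factors of SRF gave 3 genes called higher and 5 lower of 25 tested. FHL1 and CSRP1, LIM domain proteins of muscle, fell from 692.2 ± 126.4 to 225.4 ± 36.6 FPKM and from 778.5 ± 79.3 to 338.7 ± 111.1 FPKM (SD, n = 3 each; -1.61 and -1.25, adjusted p = 0.00296 and 0.0137, limma). PRRX1, a homeobox factor of mesenchymal cells, rose from 13.6 ± 1.70 to 27.5 ± 5.05 FPKM (1.002, adjusted p = 0.00984, limma), and PIAS1, a SUMO ligase, rose by 0.93 on the log2 scale. Both lay above the median of all genes, by 0.68 and 0.61.

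Among the relatives of KLF4 and KLF2, 2 of 12 tested were called higher and 2 lower. KLF15, a metabolic and muscle regulator, fell from 24.9 ± 5.56 to 10.5 ± 1.18 FPKM (SD, n = 3 each; -1.21, adjusted p = 0.00695, limma), and KLF10, which TGF-beta induces, fell by 0.75 on the log2 scale. KLF16 and KLF6 rose by 1.17 and 1.08. Of 7 tested endothelial genes that KLF2 and KLF4 are known to control, 2 were called higher and 1 lower. The count called higher was near the share of 22.8% over all tested genes. THBD, thrombomodulin, fell from 14.0 ± 4.46 to 4.16 ± 0.97 FPKM (SD, n = 3 each; -1.70, adjusted p = 0.00768, limma), while NOSTRIN, which binds the endothelial nitric oxide synthase, rose by 1.19 and SLC9A3R2, a scaffold protein, by 0.56. SLC9A3R2 lay 0.24 above the median of all genes.

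The relatives of MEF2C were 3 genes, of which MEF2D fell from 32.9 ± 5.84 to 16.5 ± 0.60 FPKM (SD, n = 3 each; -0.98, adjusted p = 0.00639, limma), without overlap, and the other two were not called. Of 13 tested relatives of TEAD1 and genes of the Hippo pathway that restrains YAP, 4 were called higher and 2 lower. The kinase genes STK4 (1.93) and LATS1 (1.06) rose on the log2 scale, and LATS2 (-0.88) and NF2 (-0.85), which also act in that pathway, fell. Of 14 tested targets of YAP and TEAD factors 2 were called higher and 2 lower, with a median of -0.39. NT5E, the CD73 ectonucleotidase, rose from 2.35 to 26.9 FPKM with 22.3 FPKM as its SD in the HFCF group, CRIM1 rose by 0.84, and GADD45B and AXL fell by 1.504 and 0.47.

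FOXO1 targets gave 4 genes called higher and 2 lower of 16 tested, with a median of 0.04. The count called higher was close to the 22.8% of all tested genes, while 6.16% of all genes were called lower. FBXO32, the muscle ubiquitin ligase atrogin-1, fell from 76.8 ± 29.1 to 5.19 ± 1.25 FPKM (SD, n = 3 each; -3.82 on the log2 scale, adjusted p = 0.00065, limma). TRIM63, the other well-known muscle ubiquitin ligase, rose from 3.02 ± 0.76 to 7.68 ± 1.19 FPKM (1.33, adjusted p = 0.00757, limma). INSR, the insulin receptor, fell by 1.33 on the log2 scale and SESN3, a stress-induced sestrin, rose by 1.595. FOXO4, the other tested FOXO gene, had 20.5 ± 2.53 and 19.98 ± 1.57 FPKM (SD, n = 3 each) and was not called. Of 11 tested relatives and partners of TCF21, 3 were called higher and none lower, again near the share over all tested genes. Among them were LYL1, a blood cell factor, which rose from 0.612 to 7.10 FPKM, and TCF4, which rose by 1.13 on the log2 scale.

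Genes named for modulated smooth muscle cells gave 9 called higher, 1 lower and 12 not called of 22 tested, and their median of 0.29 was close to that of all tested genes. SPP1, osteopontin, rose from 8.21 ± 7.83 to 426.2 ± 219.0 FPKM and S100A4 from 5.18 ± 2.44 to 200.4 ± 36.8 FPKM (SD, n = 3 each; log2 fold changes of 5.98 and 5.32, adjusted p = 0.00179 and 0.00031, limma). Both are also made by macrophages, whose markers rose in the same libraries. The part of macrophages in the SPP1 and S100A4 values was not tested. TNC, the matrix protein tenascin, fell from 210.2 ± 46.1 to 71.5 ± 24.9 FPKM (SD, n = 3 each; -1.58, adjusted p = 0.00836, limma).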

How the data were processed

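RNA of 6 abdominal aorta libraries was compared, 3 NC and 3 HFCF. The authors used cutadapt 1.9 for trimming, HISAT2 for alignment and StringTie for assembly, and deposited the expression of each gene as FPKM. The methods name an older pig genome build, while the deposited gene identifiers look like those of a later annotation. For this reason no coordinates are given. A value of 0.0001 FPKM was read as 0. Read counts were not used here, so absolute depth is not known. Steps between FPKM values under 0.3 gave depths relative to NC1 of 1.09 and 1.37 in NC2 and NC3 and of 1.03 to 1.06 in the HFCF libraries. The HFCF depths are rough, since only 19 to 23 of 1280 to 1404 genes shared the most common step. In NC2 and NC3 60 and 50 genes did, of 2062 and 2099. FPKM summed to 272207 to 287141 in the NC libraries and to 330222 to 338690 in the HFCF libraries, so the sums differed by diet without overlap. How the counting used strand is not given in the sources used here.

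Values were tested as log2(FPKM + 0.1) with limma 3.58.1 in R 4.3.3 (a linear model of diet with trended eBayes) for 15384 genes with a mean of at least 0.1 FPKM, with Benjamini-Hochberg adjustment over all of them. The added 0.1 shrinks the fold changes of genes with low FPKM. In simulated data of HFCF against NC with 15384 genes, 182 of 200 genes changed by 3 on the log2 scale were recovered. The changed genes were drawn from those with higher levels and without the widest spread. Recovery of smaller changes, such as those of SRF and MRTFA, was not simulated. The 10 factors, 12 related lists and 11 cell type lists were chosen with earlier results of these data known. Named examples of a related list were the called genes with a mean of at least 1 FPKM and the largest change, at most 2 in each direction, and the most abundant where none was called. One such gene is not reported here. The other genes named were chosen after their values were seen. Alternatives covered pseudocounts, filters, scalings, the trend, a block by replicate number and each library left out.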

Additional observations from a re-analysis of the deposited data

How the results depend on the processing

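Over 15 alternatives the calls of MYOCD (-3.12 to -2.46 on the log2 scale), SRF (-1.42 to -0.92) and MRTFA (-1.05 to -0.61) held, with adjusted p of up to 0.0273, 0.0429 and 0.0432 in limma, and the signs of the 6 ratios within a library held in their 8 alternatives. The log2 fold change of KLF4 turned to -0.13 with median-ratio scaling, -0.038 after rescaling to TPM, -0.15 without NC3 and -0.09 without HFCF3 (up to 0.59 with other libraries left out), and that of TEAD1 to -0.25 with quantile normalization. The genes called numbered 4453, between 2421 (without NC1) and 3596 with a library left out and 2883 without NC2. The share of calls higher in the HFCF group was 78.7%, or 3505 against 948, and became 50.8% with median-ratio scaling (2031 against 1966), 50.1% with quantile normalization and 59.3% after rescaling to TPM. Contractile targets called lower numbered 7 to 16 with a library left out. With the replicate block 2772 genes were called, among them the same 3 factors. Deviations from the group means correlated at 0.0206, -0.0795 and -0.0724 between same-numbered libraries and at -0.0694 to 0.127 between the others. These values showed no pairing by number, but so few libraries cannot exclude one. Scaling to the contractile markers, chosen after seeing the data, called 9188 genes and 5 factors, with 2 contractile targets called lower. It turned MRTFA to 0.33, MRTFB to 0.52, MEF2C to 0.78 and FOXO1 to 0.77. The cause of these changes was not tested. TCF21 had no value with the filter at 1 FPKM. Depth per value is unknown, also for TCF21 at 0.077 to 1.62 FPKM.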

Other observations

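Of the tested related genes, 6 with a mean of at least 1 FPKM differed by more than 5 times between libraries of the same diet, and these are given as values. KLF13 had 15.6, 17.3 and 1.28 FPKM in NC1, NC2 and NC3 and 10.9 to 14.3 FPKM in the HFCF libraries. YAP1, the coactivator that TEAD1 binds, had 1.24 FPKM in HFCF3 and 7.95 to 10.3 FPKM in the other libraries. MEF2A, a relative of MEF2C, had 0.93, 9.81 and 13.7 FPKM in the NC libraries and 21.5, 3.28 and 2.37 FPKM in the HFCF libraries. HAND2, a basic helix-loop-helix factor, had 17.9, 12.04 and 0.734 FPKM in the NC libraries and 8.15, 0.162 and 0.524 FPKM in the HFCF libraries. PDK4, a kinase that inhibits pyruvate dehydrogenase, had 7.56, 3.13 and 3.19 FPKM in the NC libraries and 3.49, 27.9 and 10.16 FPKM in the HFCF libraries. SPP1, which encodes osteopontin, had 4.41, 3.00 and 17.2 FPKM in the NC libraries and 677.8, 278.1 and 322.7 FPKM in the HFCF libraries. Among the 10 factors, TCF21 had a highest value 10.4 times the lowest in the NC group and 16.9 times in the HFCF group. Its means of 0.957 and 0.510 FPKM lay below the filter of 1 FPKM used for the related genes, with values down to 0.077 FPKM.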
